A study of Mus musculus with 6 samples.

Results

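The 10 genes described here encode receptor chains for interleukins: Il2ra, Il2rb, Il2rg, Il15ra, Il7r, Il21r and Il4ra of the common gamma chain family, Il12rb1 and Il12rb2 of the interleukin 12 receptor, and Il3ra, which belongs to neither family and is the alpha chain of the interleukin 3 receptor. They were taken by gene symbol, with a rule that does not use their values, though earlier results of these data were known at the choice. All 10 were found among the 40879 genes of the table. The table counts poly-A RNA reads of CD8 T cells, which were taken by flow cytometry from 12-day MC38-hPD-L1 tumours on C57BL/6N mice. MC38 is a mouse colon carcinoma line. Biotin had been placed by photocatalytic proximity labelling, and the sort divided the T cells into Biotin+ (called tumour-neighbouring by the submitters) and Biotin- (called tumour-distal), with 3 libraries each. Both groups share the strain, the tumour line, the labelling and the sort, and no other allele or drug is named. The labels do not say whether the 3 libraries of a group came from separate mice, so the p-values measure the spread between these libraries, which may be technical.

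Chains of the gamma family work in pairs or triplets. The common chain, product of Il2rg, joins a cytokine's own chain and recruits the kinase JAK3, while that partner recruits JAK1. Activated STAT proteins, mostly STAT5 for interleukins 2, 7 and 15, STAT6 for interleukin 4 and STAT3 for interleukin 21, then enter the nucleus. The alpha chains Il2ra (CD25) and Il15ra raise affinity for their cytokine and hardly signal themselves. Interleukin 12 is bound by Il12rb1 and Il12rb2 together, which act through TYK2, JAK2 and STAT4. In CD8 T cells these receptors govern survival, expansion and the change into effector or memory cells.

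Total counts ran from 16423106 to 19640693 per library. The sorted identity was visible in the counts, as all 15 CD8 T cell identity genes were detected in every library and the mean CPM of Cd4 was 1.22 in Biotin+ against 3.67 in Biotin- (CPM is a gene's count over the TMM-scaled total of its library, here and below). Ribosomal protein genes took 18.8% of the reads of Biotin+ replicate 2, which stood apart in this, and 13.4% to 14.6% elsewhere. Those 15 identity genes all had positive log2 fold changes between Biotin+ and Biotin- (median 0.69, 5 higher at an adjusted p below 0.05). Of 9 fibroblast and endothelial markers tested, 5 were lower in Biotin+ and 0 higher. Summed over the list without Thy1, which T cells also express, these markers stood at 99.1 to 211 CPM in Biotin+ and 716 to 1016 CPM in Biotin-. Macrophage and monocyte markers summed to 392 to 1216 CPM and 904 to 3374 CPM, with 0 of 12 called. With the replicate block 4 were lower, against 12.0% of all genes. In such bulk samples fewer cells of a type and less RNA per cell cannot be told apart.

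Promoter sequences of the chains were described as planned, with no test. RefSeq promoters on GRCm38.p6 (250 bases before to 50 after the start) matched 8 of the 10 chains, with 9 windows; Il2rb and Il12rb1 were not matched. The STAT motif TTCNNNGAA, read on both strands, was in the windows of Il12rb2 and Il7r, beginning 123 and 142 bases before the start, and 8.30% of 32851 promoters of that length hold it. The AP-1 motif TGANTCA was in 1 window, that of the downstream start of Il15ra, and in 7.81% of all promoters. The wider spacing of STAT6, TTC and GAA parted by 4 bases, was in 0 of the 9 windows and 6.95% of all promoters. An NF-kappaB motif (GGGAC directly followed by TTTCC) was in 0 of the 9 windows and 0.155% of all promoters. Base composition ranged from 42.7% G or C in the Il2ra window to 74.3% in that of Il3ra, around a median of 52.7% over all promoters. The 250 bases before the start are shown for 4 genes: Il2ra and Il3ra, both higher in Biotin+ and at the ends of that range, and Il12rb2 and Il7r, which share the STAT match (capitals) and had log2 fold changes of 0.99 and 0.04.
Il2ra (chr2:11642542-11642791, plus strand): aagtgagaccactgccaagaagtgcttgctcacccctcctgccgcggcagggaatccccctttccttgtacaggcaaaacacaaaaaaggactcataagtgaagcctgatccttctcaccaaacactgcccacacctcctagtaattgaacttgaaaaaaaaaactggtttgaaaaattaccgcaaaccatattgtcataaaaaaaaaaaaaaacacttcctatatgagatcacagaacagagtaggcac
Il3ra (chr14:14346245-14346494, plus strand): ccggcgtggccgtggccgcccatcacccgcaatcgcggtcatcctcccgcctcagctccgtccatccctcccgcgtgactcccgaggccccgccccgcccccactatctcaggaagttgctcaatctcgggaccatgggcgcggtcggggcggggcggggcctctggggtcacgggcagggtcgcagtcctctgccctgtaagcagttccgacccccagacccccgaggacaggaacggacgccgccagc
Il12rb2 (chr6:67376189-67376438, minus strand): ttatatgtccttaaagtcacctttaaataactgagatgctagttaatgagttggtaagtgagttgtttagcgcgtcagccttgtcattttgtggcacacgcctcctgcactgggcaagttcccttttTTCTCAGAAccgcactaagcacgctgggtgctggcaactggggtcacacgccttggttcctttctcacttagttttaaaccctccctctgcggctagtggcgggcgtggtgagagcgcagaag
Il7r (chr15:9529877-9530126, minus strand): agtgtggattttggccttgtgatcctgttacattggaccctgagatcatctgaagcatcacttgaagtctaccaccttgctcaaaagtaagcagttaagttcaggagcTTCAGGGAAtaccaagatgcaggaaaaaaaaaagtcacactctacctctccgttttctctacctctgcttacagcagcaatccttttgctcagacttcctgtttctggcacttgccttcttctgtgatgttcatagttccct

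In Biotin+ libraries the interleukin 12 chain Il12rb1, the interleukin 3 chain Il3ra, CD25 (Il2ra) and the chain shared by interleukins 2 and 15 (Il2rb) rose, by 1.94- to 2.37-fold. The other 6 chains, among them the common gamma chain, the interleukin 7 chain and Il15ra, did not pass in the fit with the group alone. Thus 4 of 10 chains were higher and 0 lower, in a test of 13360 genes in which 8.26% were called, 1.53% as higher and 6.72% as lower (edgeR's quasi-likelihood test, Benjamini-Hochberg adjusted p below 0.05). Their median log2 fold change (Biotin+ minus Biotin-) was 0.76, against 0.06 over all genes tested, and 9 of 10 were positive against 55.3% of all genes. With the replicate number as a block, 6 of 10 were higher and 0 lower, against 5.60% and 12.0% of all genes, the additional chains being Il12rb2 and Il21r. Those 6 chains were also the ones whose lowest Biotin+ library exceeded the highest Biotin- library in CPM, where 29.2% of all genes had separate ranges, 13.4% higher and 15.9% lower. Left without Biotin- replicate 1, 2 or 3, only Il12rb1 was called; without Biotin+ replicate 3 it was called with Il3ra.

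**Figure D1:**
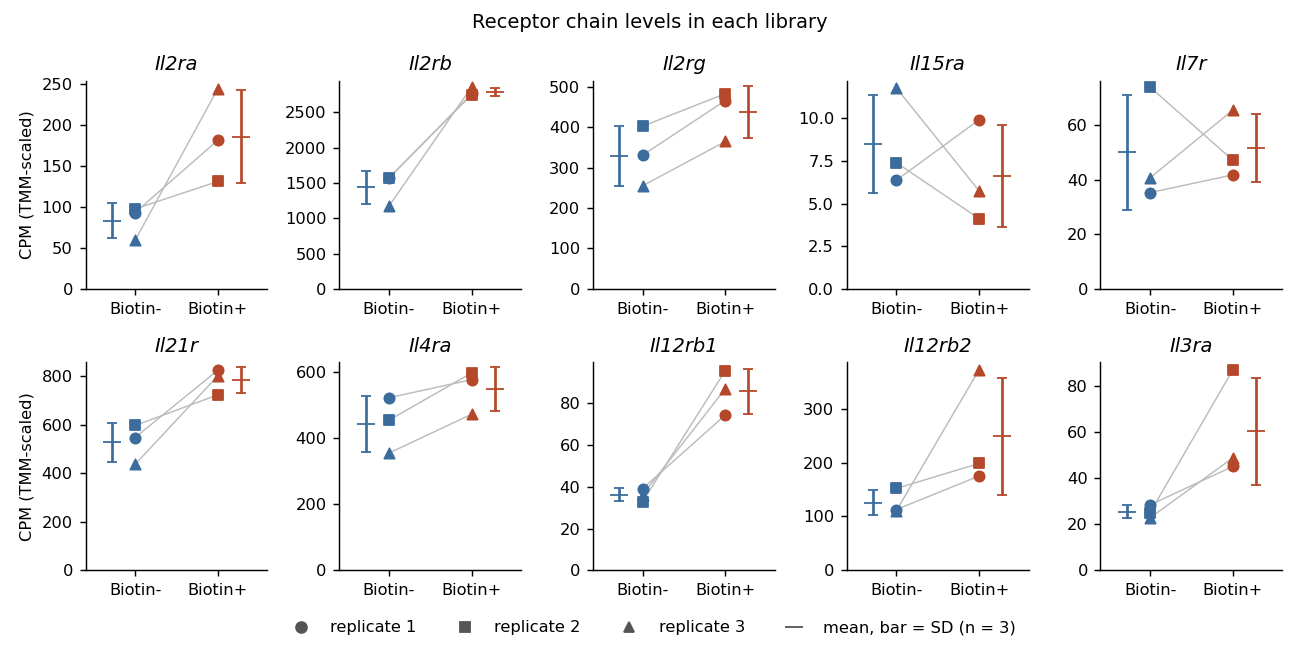
CPM of the 10 receptor chains in each library (vertical axes start at 0 and differ between panels), Biotin- in blue and Biotin+ in red, with grey lines joining libraries of the same replicate number and bars for mean and SD (n = 3). For Il2ra, Il2rb, Il21r, Il12rb1, Il12rb2 and Il3ra every Biotin+ point lies above every Biotin- point, whereas the points of Il15ra and Il7r interleave.

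The rise was measured against the whole transcriptome, and T cell genes as a group stood higher in the same libraries. Scaling each library to the 15 CD8 T cell identity genes shifted all genes by -0.78 at the median, on the log2 scale, and then 0 of 10 chains were called, where 0.157% of all genes were higher and 29.3% lower (edgeR; 2 chains, Il15ra and Il4ra, had an unadjusted p under 0.05, both lower). On that scale Il12rb1 (0.44), Il2ra (0.43), Il3ra (0.40), Il12rb2 (0.26) and Il2rb (0.19) kept positive log2 fold changes, while Il21r (-0.19), Il2rg (-0.36), Il4ra (-0.48) and Il7r (-0.67) turned negative and Il15ra stood at -1.12. Among calls over all genes the higher share was 18.6% with TMM and 0.533% with identity scaling. When identity scaling was combined with the replicate block, Il15ra, Il4ra and Il7r were called lower (edgeR adjusted p = 0.0113, 0.0259 and 0.0271), in a fit where 60.0% of all genes were. With TMM and with identity scaling alike, Il12rb1, Il3ra and Il2ra had the 3 highest values of the 10 and Il7r and Il15ra the 2 lowest.

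**Figure D2:**
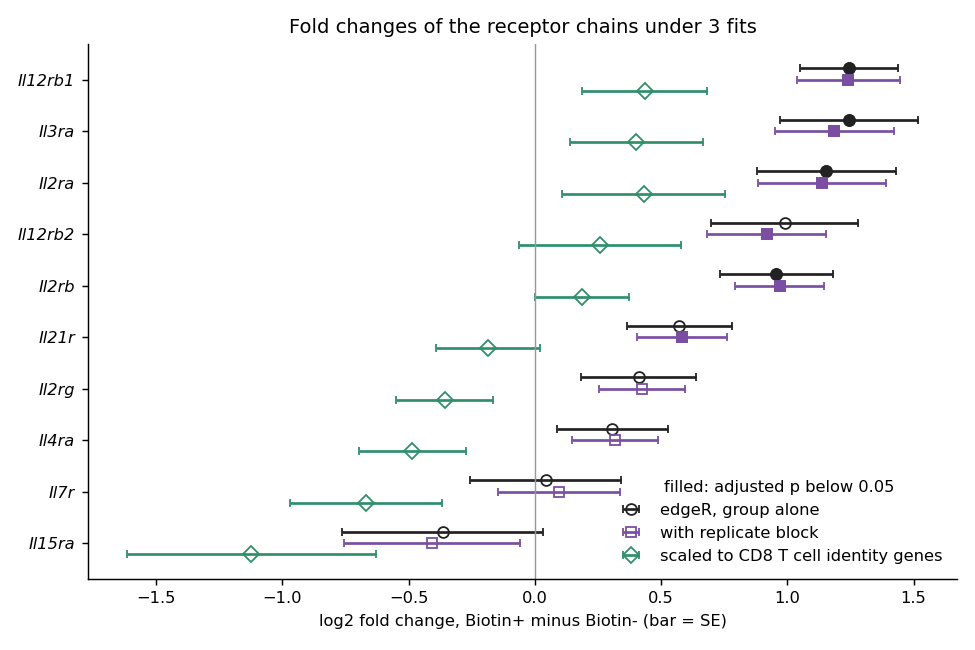
Log2 fold changes (Biotin+ minus Biotin-, horizontal axis, bars are SE) of the 10 chains in edgeR with the group alone (black), with the replicate block (purple) and with libraries scaled to CD8 T cell identity genes (green); filled symbols have an adjusted p below 0.05. The black and purple symbols nearly coincide, 4 and 6 of them are filled, and the green ones lie to the left with none filled.

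CD25, the inducible chain that gives the interleukin 2 receptor its high affinity, is encoded by Il2ra. It was at 181, 131 and 244 CPM in Biotin+ replicates 1 to 3 and at 93.1, 97.6 and 59.3 CPM in Biotin-. Biotin+ replicate 3 was the highest and Biotin- replicate 3 the lowest, so that the same-numbered pairs differed unequally, by 0.96, 0.42 and 2.04 on the log2 scale. The log2 fold change was 1.15 ± 0.27 (SE, adjusted p = 0.0290 by edgeR, higher in 3 of 3 pairs). The call was lost without Biotin+ replicate 3 (edgeR adjusted p = 0.0701) and without Biotin- replicate 1, 2 or 3 (0.0672, 0.0621 and 0.125), and with scaling by library size alone (0.0860). Regulatory T cells also carry CD25, and their defining factor Foxp3 had mean CPM of 1.22 in Biotin+ against 1.25 in Biotin-. The list of 6 markers of CD4 and regulatory T cells summed to 373 to 579 CPM in Biotin+ and 272 to 346 CPM in Biotin-. These ranges were separate. Of the 6 markers 0 were called, and with the block Tnfrsf18 was higher and Cd4 lower. The part of regulatory T cells in the Il2ra difference was not tested.

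Il2rb, the signalling chain for interleukins 2 and 15, had the highest mean CPM of these transcripts, above 99.7% of all genes tested. These CPM are not corrected for transcript length. Its level was nearly constant in Biotin+, at 2759, 2750 and 2859 CPM, and lay at 1571, 1569 and 1171 CPM in Biotin-. The groups were well apart relative to their spread (2789 ± 60.4 and 1437 ± 230.2 CPM, SD, n = 3), with a log2 fold change of 0.96 ± 0.22 (SE, adjusted p = 0.0270 by edgeR). Even so, the call was lost without any one library other than Biotin+ replicate 2, with edgeR adjusted p of 0.0547 and 0.0565 without Biotin+ replicate 1 or 3, and 0.0995, 0.0749 and 0.157 without Biotin- replicate 1, 2 or 3. The fold change itself stayed between 0.83 and 1.03 in these fits. NK cells are rich in Il2rb as well. Their receptor gene Ncr1 had mean CPM of 0.147 in Biotin+ against 0.0161 in Biotin-, while the list of 7 NK markers summed to 228 to 329 and 179 to 197 CPM, most of it Gzma and Eomes, which CD8 T cells express too. Of its 5 tested genes Gzma was higher and Klra4 lower (mean CPM 4.36 against 17.5), and Klrb1c, with mean CPM of 18.3 against 6.97, did not pass (log2 fold change 1.39, edgeR adjusted p = 0.159; 0.000758 with the block). The part of NK cells in the Il2rb difference was not tested.

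The common gamma chain gene, Il2rg, differed less. It was at 465, 482 and 364 CPM in Biotin+, against 330, 402 and 255 in Biotin-. Each Biotin+ library exceeded its same-numbered partner, but the ranges overlapped. The log2 fold change of 0.41 ± 0.23 (SE) did not pass (edgeR adjusted p = 0.326; 0.101 with the block), and its 95% interval ran from -0.09 to 0.92. An unnamed gene model, Gm20489, shares 30.5% of the exon bases of Il2rg on the same strand in GENCODE M21 and is not analysed here.

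Il15ra, which presents interleukin 15 to neighbouring cells, was the scarcest chain and the one with a negative log2 fold change. Its counts were 184, 66 and 95 in Biotin+ and 131, 135 and 218 in Biotin-, or 9.92, 4.13 and 5.75 CPM against 6.37, 7.40 and 11.8 CPM. Biotin+ replicate 1 and Biotin- replicate 3 were the highest of their groups, and the ranges overlapped. With a log2 fold change of -0.37 ± 0.40 (SE, adjusted p = 0.639 by edgeR) and a 95% interval from -1.25 to 0.52, neither a fall by a factor of 2 nor a modest rise was distinguishable at this depth. Il15ra lies 12.1 kb beyond Il2ra on the same strand of chromosome 2 with 0 coding genes between them (GENCODE M21, GRCm38). The neighbours had log2 fold changes of opposite sign, but that of Il15ra was smaller than its SE and was 0.029 without replicate 3.

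Il7r, the interleukin 7 chain of naive and memory cells, was at 41.7, 47.1 and 65.3 CPM in Biotin+, against 35.2, 73.8 and 40.7 in Biotin-. The highest library was Biotin- replicate 2, and the pairs differed in both directions (0.24, -0.65 and 0.68). No difference beyond this spread was detected (log2 fold change 0.04 ± 0.30 SE, 95% interval -0.62 to 0.70, edgeR adjusted p = 0.952). Il21r, the interleukin 21 chain, was at 824, 722 and 801 CPM against 547, 596 and 437 CPM. Its ranges were separate, its log2 fold change was 0.57 ± 0.21 (SE), and it passed with the replicate block (edgeR adjusted p = 0.0319; 0.129 without the block) and in DESeq2 (0.0426). Il4ra, the chain for interleukins 4 and 13, was at 577, 598 and 473 CPM against 523, 455 and 355 CPM, with overlapping ranges (log2 fold change 0.31 ± 0.22 SE, 95% interval -0.18 to 0.79, edgeR adjusted p = 0.449). Il4ra and Il21r are also neighbours, 23954 bases apart on chromosome 7 with 0 coding genes between them, and both had modest positive values.

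Il12rb1, the chain shared by the interleukin 12 and 23 receptors, was the chain whose call held in every leave-out. It was at 74.3, 95.6 and 86.9 CPM in Biotin+, against 39.2, 33.0 and 36.2 in Biotin-. The lowest Biotin+ library was well above the highest Biotin- library. The log2 fold change was 1.24 ± 0.19 (SE, adjusted p = 0.00739 by edgeR), with pair differences of 0.92, 1.54 and 1.26. Leaving out any of the 6 libraries, or any of the 3 same-numbered pairs, kept the call (largest edgeR adjusted p = 0.0414).

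Il12rb2, the signalling partner that activated T cells induce, was at 175, 198 and 372 CPM in Biotin+, against 113, 152 and 110 in Biotin-. Biotin+ replicate 3, also the highest library in Il2ra and Il2rb, stood well above the other 5. The log2 fold change of 0.99 ± 0.29 (SE) did not pass (edgeR adjusted p = 0.0658) and was called with the block (0.0114), by DESeq2 (0.0141) and by voom (0.0255). It was 0.58 without Biotin+ replicate 3 (edgeR adjusted p = 0.202) and was called without Biotin+ replicate 1 (0.0394). Exons of Serbp1, an RNA-binding protein gene on the opposite strand, cover 40.0% of the joined exon bases of Il12rb2 in GENCODE M21, and without a stated strand setting reads of the pair cannot be told apart there. Serbp1 itself was at 760, 1080 and 760 CPM in Biotin+, against 629, 849 and 557 in Biotin-, highest in replicate 2 of both groups, and did not pass (log2 fold change 0.35 ± 0.25 SE, adjusted p = 0.432 by edgeR).

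Il3ra, the alpha chain that joins the beta common chain to form the interleukin 3 receptor, was at 45.0, 86.8 and 48.8 CPM in Biotin+, against 28.4, 25.1 and 22.8 in Biotin-. The Biotin+ library that stood apart by ribosomal transcripts, replicate 2, was the highest. The log2 fold change was 1.24 ± 0.27 (SE, adjusted p = 0.0218 by edgeR), and 0.86 without that library (edgeR adjusted p = 0.0499). The call was lost without Biotin- replicate 1, 2 or 3 (edgeR adjusted p = 0.0530, 0.0805 and 0.106). Its signalling partners Csf2rb and Csf2rb2 had log2 fold changes of -0.12 and -0.24, and neither passed (edgeR adjusted p = 0.903 and 0.810). Mast cells and basophils are rich in this receptor. Of their 7 markers Ms4a2 had 0 counts in every library, and 0 of 4 tested were called. The list summed to 15.6 to 26.8 CPM in Biotin+ and 17.0 to 25.0 CPM in Biotin-. The list of 10 dendritic cell and MHC class II markers summed to more, 575 to 1465 CPM in Biotin+ and 560 to 1490 CPM in Biotin-. Of its 9 tested genes 0 were called. The part of other cells in the Il3ra difference was not tested.

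Between same-numbered pairs, 8 of the 10 chains had their largest difference, in either direction, in replicate 3 (negative for Il15ra), whereas Il12rb1 and Il3ra had theirs in replicate 2. Ratios within a library, which no scaling between libraries can alter, were taken for 6 pairs of chains (exact permutation tests, two-sided, 3 against 3 libraries, where the smallest p the design allows is 0.10). The ratio of Il2ra to Il7r counts was 4.35, 2.78 and 3.74 in Biotin+ and 2.64, 1.32 and 1.46 in Biotin-. These ranges were separate, with a difference of 1.05 on the log2 scale (exact permutation p = 0.10, adjusted p = 0.30 over the 6 ratios). Il15ra relative to Il2rb was lower in all Biotin+ libraries than in any Biotin- library, with log2 ratios of -8.12, -9.38 and -8.96 against -7.95, -7.73 and -6.64 (difference -1.38, exact permutation p = 0.10, adjusted p = 0.30). In contrast, the log2 ratio of Il2ra to Il2rb overlapped between groups (-3.96 ± 0.42 in Biotin+, -4.13 ± 0.16 in Biotin-, SD, n = 3, exact permutation p = 0.60). The ratios of Il21r and Il4ra to Il2rg and of Il12rb2 to Il12rb1 overlapped as well, with differences of 0.16, -0.11 and -0.32 (exact permutation p = 0.40, 0.60 and 0.50). Fibroblast and endothelial markers were lower in the same Biotin+ libraries. The part of other cells in the ratio of Il15ra to Il2rb was not tested.

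**Figure D3:**
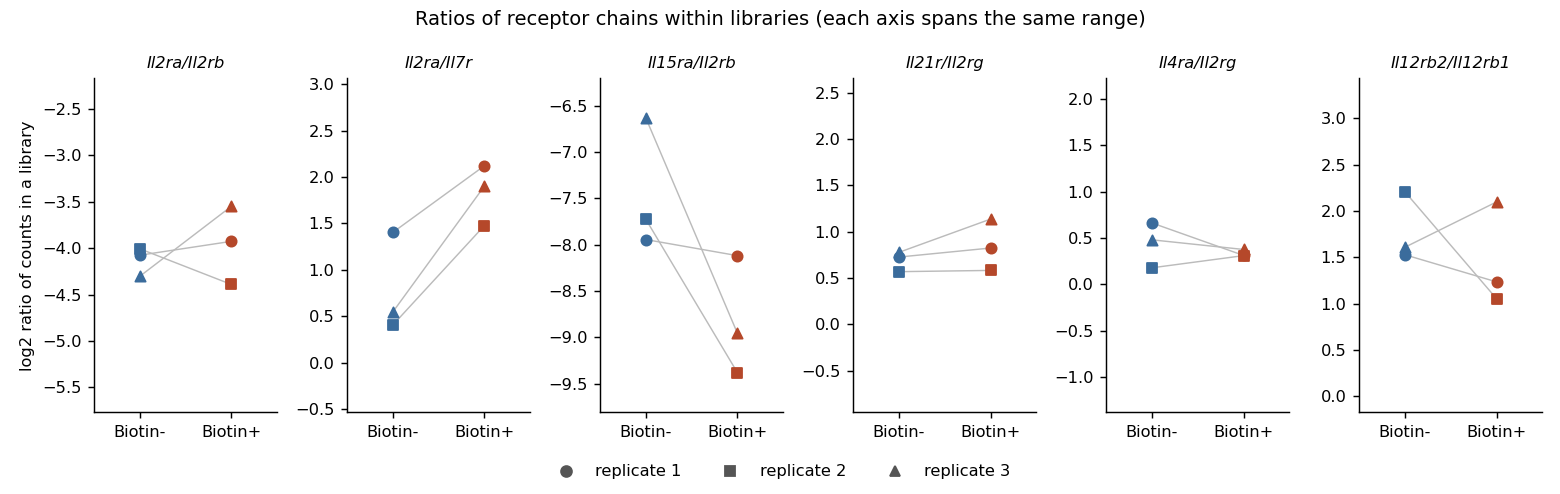
Log2 ratios of raw counts of 6 pairs of chains within each library (vertical axes, all of the same span), Biotin- in blue and Biotin+ in red, with grey lines joining the same replicate number. The groups are apart for Il2ra over Il7r, which is higher in Biotin+, and Il15ra over Il2rb, which is lower, and overlap in the other 4 panels.

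Levels of different chains can be set side by side only per transcript length. Divided by the longest coding transcript (GENCODE M21), the order over all 6 libraries was Il2rb at 504 CPM per kb, Il21r at 262, Il2rg at 229, Il4ra at 94.5, Il12rb2 at 62.3, Il2ra at 30.5, Il12rb1 at 21.2, Il3ra at 18.5, Il7r at 14.3 and Il15ra at 3.91 CPM per kb. With the median coding transcript, the length first planned, the levels were 694 CPM per kb for Il2rb and 338 for Il2rg, and Il4ra came first at 1012 because its median transcript has 491 bases against 5256 in the longest. Joining all exons gave the order of the longest transcript. Il21r and Il2rg, which are neighbours in this order, differed by little relative to their spread in Biotin- (211 ± 32.7 and 197 ± 44.1 CPM per kb, SD, n = 3). In Biotin+ they were at 313 ± 21.3 and 262 ± 38.2 CPM per kb, a gap larger than either SD. Another close pair of neighbours was Il12rb1 and Il3ra, with means of 21.2 and 18.5 CPM per kb over the 6 libraries. By the longest transcript, Il7r was above Il12rb1 and Il3ra in mean level in Biotin- (14.1 ± 5.89 CPM per kb). The gaps to both were smaller than that SD. In Biotin+ Il7r was below both (14.5 ± 3.50 CPM per kb). By the median coding transcript, Il7r was below Il3ra in Biotin- too (14.1 against 22.5 CPM per kb).

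**Figure D4:**
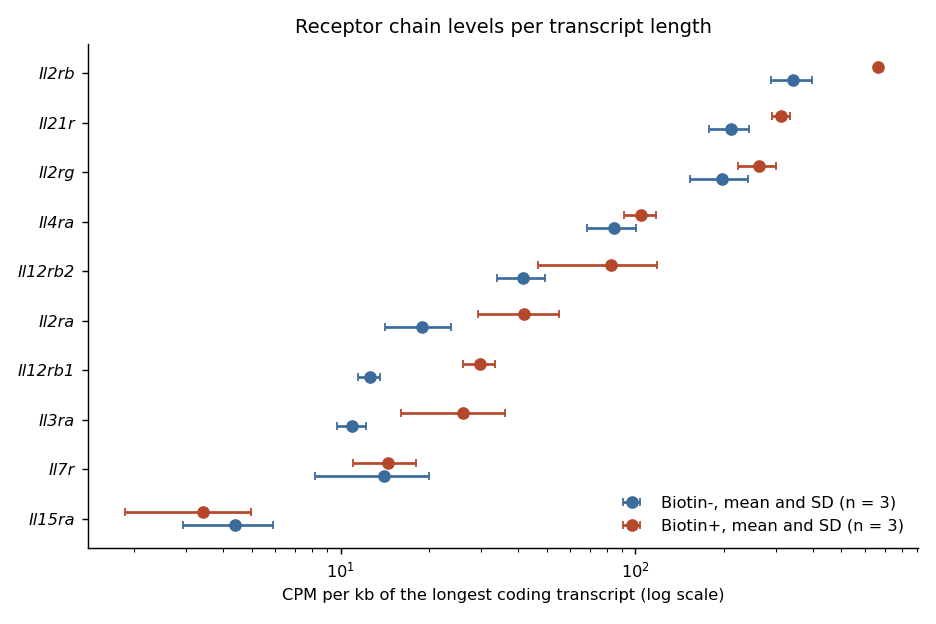
Level of each chain in CPM per kb of its longest coding transcript (horizontal axis, log scale), mean and SD over 3 libraries for Biotin- (blue) and Biotin+ (red). Il2rb lies at the top with 665 in Biotin+ and 343 in Biotin-, and Il15ra at the bottom with 3.41 and 4.40.

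Of 11 partner chains of these receptors, 7 had enough counts to test, and 1 was higher and 0 lower (median log2 fold change -0.24). The riser was Crlf2, which pairs with the interleukin 7 chain in the receptor for thymic stromal lymphopoietin. It was at 229, 302 and 233 CPM in Biotin+, against 128, 139 and 129 in Biotin- (log2 fold change 0.95 ± 0.19 SE, adjusted p = 0.0172 by edgeR). Its call was lost without Biotin- replicate 1 or 3 (edgeR adjusted p = 0.0817 and 0.0839) and its log2 fold change was 0.15 with identity scaling. Identity scaling called 0 of the 7 higher and 2 lower (Il13ra1 and Il6st), in a fit where 29.3% of all genes were lower. With the replicate block Crlf2 was higher and Il6st lower. Il13ra1 and Il6st were named after their values were seen. The private chains for interleukins 9, 23 and 5 (Il9r, Il23r and Il5ra) had too few counts to test, with means of at most 0.509 CPM in a group.

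The cytokines themselves were scarce in these libraries. Of 12 ligand genes, 5 could be tested and 0 were called in edgeR, where 1 (Il15) had an unadjusted p under 0.05. Il2 averaged 0.244 ± 0.277 CPM in Biotin+, against 0.660 ± 0.327 in Biotin- (SD, n = 3). Il15 was at 1.35 ± 0.844 and 3.51 ± 0.847 CPM, with separate ranges and a log2 fold change of -1.37 ± 0.55 (SE, adjusted p = 0.170 by edgeR). It was called lower with identity scaling (edgeR adjusted p = 0.0342). The part of other cells in the Il15 difference was not tested. Il13 was at 1.63 ± 0.691 and 0.622 ± 0.135 CPM and Il12b, which dendritic cells make, at 3.10 ± 1.64 and 1.59 ± 0.678 CPM, and Il7 averaged 0.386 and 0.862 CPM and was not tested. Il4 and Il9 had 0 counts in each library.

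Among 11 JAK and STAT genes, 1 was higher and 0 lower (median log2 fold change 0.10). Jak3, the kinase bound by the common gamma chain, was at 314, 498 and 405 CPM in Biotin+, against 201, 247 and 198 in Biotin-. Its log2 fold change of 0.91 ± 0.22 (SE, adjusted p = 0.0329 by edgeR) lost the call without each library except Biotin+ replicate 1 (edgeR adjusted p = 0.0601 to 0.147). Jak1, which serves the partner chains, did not differ detectably (0.07 ± 0.26 SE, adjusted p = 0.907 by edgeR). Tyk2, the kinase of Il12rb1, stood at 0.66 ± 0.20 (SE) on the log2 scale, passing with the block (edgeR adjusted p = 0.0274; 0.0705 without it) and without Biotin+ replicate 1 (0.0472), whereas Jak2, the kinase of Il12rb2, stood at -0.37 ± 0.29. Stat5a, Stat5b, Stat6 and Stat4 had log2 fold changes of -0.02, -0.09, 0.10 and 0.47 and did not pass (edgeR adjusted p = 0.967, 0.827, 0.836 and 0.351). With identity scaling, Jak2, Stat5a, Stat5b and Stat6 were the 4 called lower (edgeR adjusted p = 0.0470, 0.0293, 0.0153 and 0.0279), beside 29.3% of all genes, and Jak3 was not called. With the replicate block 3 of the 11 were higher and 0 lower, against 5.60% and 12.0% of all genes. They were Jak3, Tyk2 and Stat3, the last named after its values were seen. In the list of 10 adaptor and PI3K genes, 1 was higher and 0 lower: Pik3cd, the lymphocyte catalytic subunit p110 delta (log2 fold change 0.92 ± 0.21 SE, adjusted p = 0.0244 by edgeR), whose call was lost without Biotin+ replicate 3 or Biotin- replicate 1 or 3 (edgeR adjusted p = 0.0707, 0.102 and 0.123). With identity scaling 0 of the 10 were higher and 5 lower, against 0.157% and 29.3% of all genes. With the block Pik3cd was higher and Gab2, an adaptor named after its values were seen, lower.

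Of 16 genes known as STAT5 targets or feedback regulators, 4 were higher and 0 lower, with a median log2 fold change of 0.43 (-0.36 with identity scaling, where 1 was higher, Gzmb, and 2 lower, against 29.3% of all genes lower). Gzmb, the granule protease granzyme B, was at 1511, 3021 and 2575 CPM in Biotin+, against 452, 802 and 462 in Biotin-. Its log2 fold change was 2.05 ± 0.33 (SE, adjusted p = 0.00785 by edgeR) and kept its call without each library. Socs2, a feedback inhibitor of cytokine receptors, was at 45.0, 44.9 and 77.3 CPM in Biotin+, against 18.6, 27.1 and 13.8 in Biotin- (log2 fold change 1.49 ± 0.31 SE, adjusted p = 0.0178 by edgeR). Its highest and lowest libraries, Biotin+ and Biotin- replicate 3, were also those of Il2ra. Bcl2l1, which encodes the survival protein BCL-XL, stood at 0.94 ± 0.18 (SE) on the log2 scale and Ccnd3, a cyclin of the G1 phase, at 0.84 ± 0.20 (edgeR adjusted p = 0.0145 and 0.0297). Without Biotin- replicate 1 or 3, 1 of the 16 was called in place of 4. With the block 6 were higher and 2 lower, against 5.60% and 12.0% of all genes.

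None of 9 genes linked to STAT4 or interleukin 12 responses was called in edgeR, although 3 had an unadjusted p under 0.05, all with positive log2 fold changes. One of them was Tbx21, the gene of T-bet, a regulator of effector cells. With the block, 3 of the 9 were higher, against 5.60% of all genes. Tbx21 was at 173, 241 and 144 CPM in Biotin+, against 83.4, 137 and 64.8 in Biotin-, so that its highest library was Biotin+ replicate 2, as for Il12rb1, and not replicate 3, as for Il12rb2. Its log2 fold change was 0.97 ± 0.30 (SE, adjusted p = 0.0761 by edgeR; 0.000948 with the block), and it was called without Biotin+ replicate 3 or Biotin- replicate 2 (edgeR adjusted p = 0.0495 and 0.0352). Lrrc32, which holds latent TGF-beta at the cell surface, had a log2 fold change of 1.35 ± 0.56 (SE, adjusted p = 0.182 by edgeR; 0.0117 with the block).

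A last list held 10 genes that interleukin 2 or 7 signals lower or that FOXO1, the factor switched off by PI3K and AKT, maintains. Of these 5 were lower and 0 higher (median log2 fold change -0.94; 3 lower without Biotin+ replicate 2). With the replicate block 6 were lower and 1 higher, against 12.0% and 5.60% of all genes. The additions were Ccr7 (lower) and Foxo1 itself (higher), both named after their values were seen. Identity scaling called 6 lower, against 29.3% of all genes. Among the 5 were Tcf7, Klf2 and S1pr1, genes of naive and recirculating T cells, and Pik3ip1, an inhibitor of PI3K, named after its values were seen. Tcf7, Klf2 and S1pr1 had log2 fold changes of -1.77, -1.64 and -2.11 (edgeR adjusted p = 0.00442, 0.00554 and 0.00603), and their calls held without each library. Pik3ip1 had a log2 fold change of -1.12 ± 0.28 (SE, adjusted p = 0.0352 by edgeR), and lost the call without each library except Biotin+ replicate 1 (0.0745 to 0.134). Il7r, which FOXO1 maintains as well, had a log2 fold change of 0.04. Fibroblast and endothelial markers were lower in the same libraries (99.1 to 211 CPM against 716 to 1016 CPM), and their part in these differences was not tested.

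**Figure D5:**
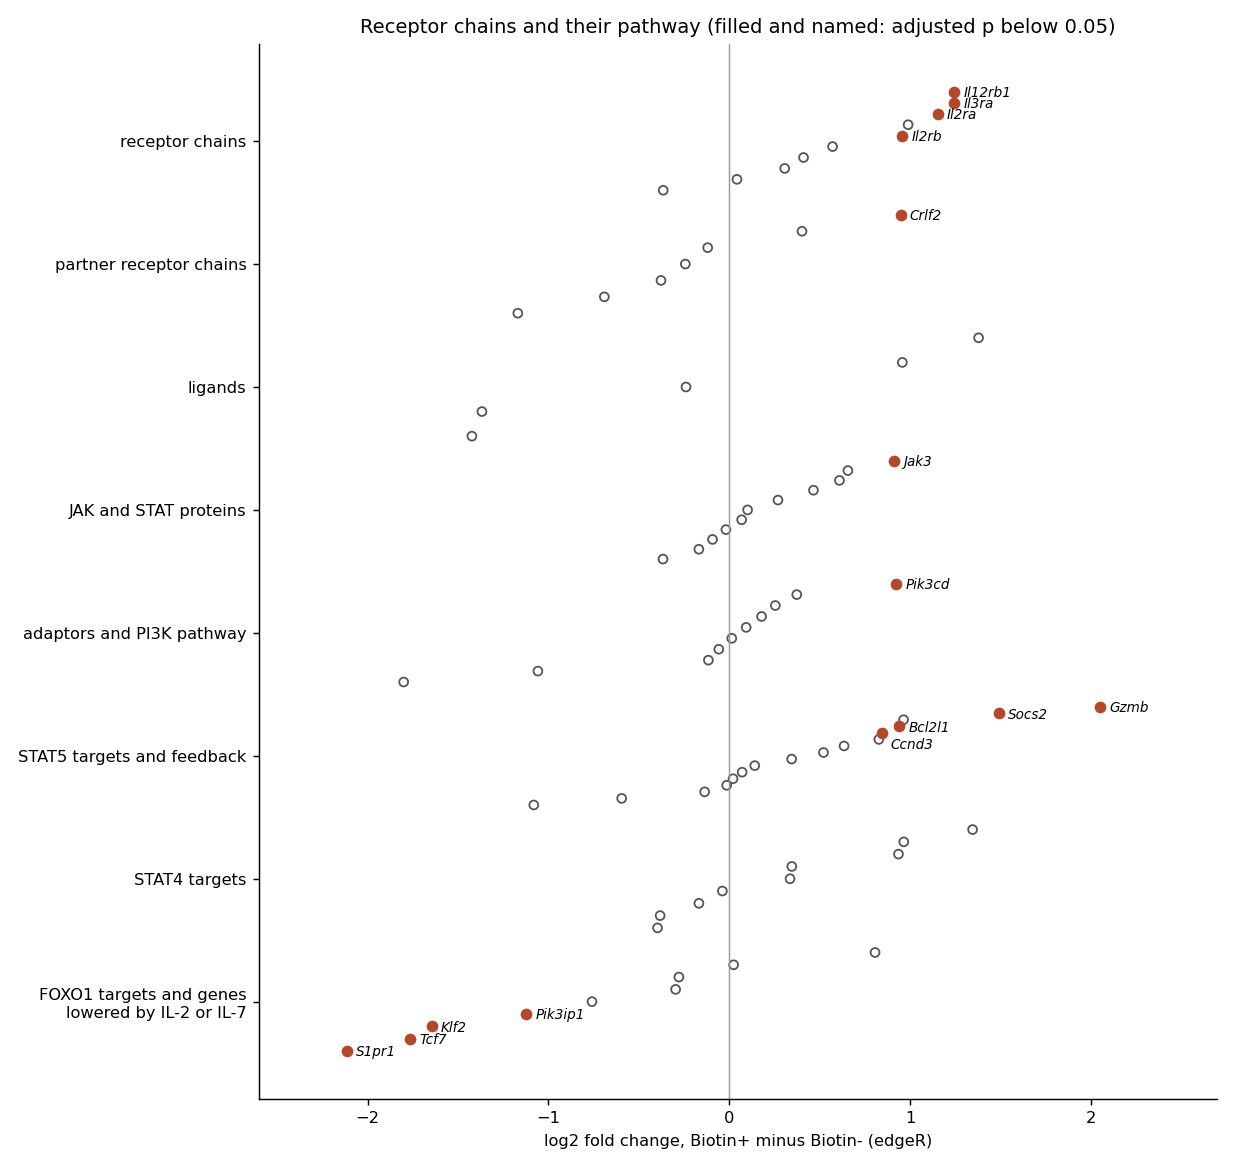
Log2 fold changes (Biotin+ minus Biotin-, edgeR, horizontal axis) of the genes tested and reported here in the receptor list and 7 pathway lists, 1 circle per gene; filled circles with a name have an adjusted p below 0.05. Named genes lie to the right of 0 in the lists of receptors, partners, JAK and STAT proteins, adaptors and STAT5 targets, and to the left in the last list.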

How the data were processed

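Per the labels and its whole numbers, the authors' table gives raw read counts by gene symbol for 6 libraries. The submitters' processing notes list Trim Galore 0.6.7, STAR 2.7.10a, Picard 1.14, featureCounts 2.0.1 and GRCm39 with no roles. Annotation and strand setting: not given in the sources used here. As no molecular identifiers are named, counting error is a lower limit.

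Genes passing filterByExpr (13360) were fitted with edgeR 4.0.16 (R 4.3.3, TMM, robust glmQLFit, group alone), with Benjamini-Hochberg adjustment over all of them. Each SE was derived from the fold change and its F statistic. Libraries of a group differed beyond sampling noise (chi-square over its degrees of freedom, 35.6 to 102.7), so none was merged. Deviations from group means correlated at 0.366, 0.263 and 0.393 for same-numbered libraries and at -0.276 to -0.0721 for others. Deviations within a group cancel out, so positive correlations of same-numbered libraries draw the others negative. From the positive values, the replicate numbers in the titles were taken as pairs in the fit with the replicate block. The main fit and the leave-out fits did not use the pairs. Blocked values are printed for the chains and pathway lists where they change a call. The fits were tested on simulated counts that held no effect of the replicate number and no shift in cell composition. That test therefore does not cover the pairing or the choice of scaling.

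Alternatives were other scalings, filters, DESeq2 1.42.0, limma 3.58.1 (voom), the replicate block, and leaving out libraries or pairs. Identity scaling combined with the block, and all exons joined as length, were added after the values were seen. The receptor chains, lists and tests were chosen with earlier results of these data known. Named genes are all 10 chains, up to 4 called genes of each list with the smallest p (otherwise the 2 with the smallest p), and preset ligands, kinases and STAT genes. Lengths and overlaps come from GENCODE M21 (GRCm38), another build than the authors', and promoters from RefSeq (GRCm38.p6). Levels per length were planned with the median coding transcript, with the longest as alternative. The Results lead with the longest, as the median transcript of Il4ra has 491 bases. Protein sequences were not used here. One gene that the naming rule selects is not reported here, though list counts include it.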

Additional observations from a re-analysis of the deposited data

How the results depend on the processing

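With 3 libraries a group, leaving out 1 library changed several calls, in fits that also had fewer libraries to test with. Counting called genes, the edgeR fit gave 1103 over all genes, against 3940 with identity scaling, 1891 without a filter, 1860 with DESeq2, 2347 with the replicate block and 8108 with identity scaling and the block (added after the values were seen). Leaving out a library or pair gave 262 to 1213 over all genes and 1 to 4 of the 10 chains, and identity scaling gave 0 chains. Of the alternatives for the chains' fold changes 138 kept sign and call, 8 gained the call, 28 lost it and 16 changed sign. For the other named genes these numbers were 363, 20, 49 and 21. The cause was not tested.

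Signs changed as follows on the log2 scale. Identity scaling gave -0.36 for Il2rg, -0.67 for Il7r, -0.19 for Il21r, -0.48 for Il4ra, -0.66 for Jak1, -0.13 for Tyk2, -0.26 for Stat4 and -0.68 for Stat6. With the block added these were -0.36, -0.69, -0.20, -0.47, -0.72, -0.14, -0.24 and -0.67. Library size alone gave -0.14 for Il7r, -0.11 for Jak1 and -0.11 for Stat6, upper-quartile scaling -0.029 for Il7r and -0.0067 for Jak1, and voom 0.068 for Stat5a. Leaving out a library or pair gave -0.96 to 0.029 for Il15ra, -0.30 to 0.43 for Il7r, -0.15 to 0.31 for Jak1, -0.15 to 0.082 for Stat5a and -0.071 to 0.20 for Stat6. In CPM per kb, the longest transcript gave 229 for Il2rg and 94.5 for Il4ra, and joined exons 23.5 for Il2ra, 161 for Il2rg, 1.70 for Il15ra, 197 for Il21r, 82.8 for Il4ra and 14.4 for Il3ra.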
